A study of Mus musculus with 3 samples.

Results

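Carbonic anhydrases are zinc enzymes that turn carbon dioxide and water into bicarbonate and a proton, and back. Some work in the cytosol, some in mitochondria, some at the cell surface with the catalytic part outside, and 1 is secreted; a few relatives have lost zinc-binding residues and are not active on carbon dioxide. In bone the family is best known from osteoclasts, which use it to supply protons for dissolving mineral, and in growth plate cartilage carbonic anhydrase activity has long been described near the zone of mineral deposition.

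The genes described are Car2, Car3, Car4, Car6, Car8, Car9, Car11, Car12, Car13 and Car14. They were taken by gene symbol from the platform annotation: 20 probe sets carried 1 of these 10 symbols, of 45101 probe sets on the array, and the 10 genes stand among 18193 genes with a probe set of their own. All 10 matched a gene of the same symbol in RefSeq by gene number. The 10 genes were chosen by their signals on these same 3 arrays, so what follows describes those signals and tests nothing.

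The cells came from femur and tibia of C57BL/6 mice; bone fragments were digested with collagenase to free cells described as endosteal. Blood, endothelial and erythroid cells were removed by gating on absence of CD45, CD31 and Ter119, which all 3 populations share. The remainder was sorted into PDGFRa+Sca-1+, PDGFRa+Sca-1- and PDGFRa-Sca-1- cells; PDGFRa is a platelet-derived growth factor receptor of mesenchymal cells and Sca-1 a surface antigen by which mesenchymal progenitors are often enriched. Each population was profiled on 1 Affymetrix array after a two-cycle labelling assay, so no difference below has a replicate check, and neither the age of the mice nor whether animals were pooled is given in the sources used here.

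Signals are linear, with the arrays brought to the same trimmed mean, and a floor of 93.2, the mean of the array medians, separates measured signals from those too dim to order. Pdgfra had a signal of 12846 in PDGFRa+Sca-1+, 2420 in PDGFRa+Sca-1- and 586 in PDGFRa-Sca-1- cells. Ptprc, the gene for CD45, and Pecam1, the gene for CD31, lay under the floor on all 3 arrays. Some other genes of those cells did not. Of 10 leucocyte genes 4, 4 and 2 were over the floor, and of 8 endothelial genes 2, 3 and 1, in the same order of populations. Of all 18193 genes 10846, 11042 and 11026 were over it, a larger share than in either list on each array. These numbers are the background for the marker counts below. The brightest markers of the 2 lists included the granule gene Mpo, at 655, 712 and 44.9, Lyz2, at 353, 152 and 134, Laptm5, at 128, 252 and 231, and the endothelial receptor genes Tek, at 888, 37.4 and 13.3, and Kdr, at 155, 110.4 and 67.1. Cartilage genes were bright in both Sca-1- populations. All 13 genes of a chondrocyte list were at least 2-fold lower in PDGFRa+Sca-1+ than in PDGFRa+Sca-1- cells, where 11.3% of all genes compared were lower. The signals of that list summed to 21105 in PDGFRa+Sca-1+, 281653 in PDGFRa+Sca-1- and 277860 in PDGFRa-Sca-1- cells. The label "endosteal cell" therefore covers fractions in which cartilage transcripts are abundant. The 3' to 5' signal ratio of the Actb control probe sets was 4.65, 2.63 and 2.99 in the same order of populations.

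Of the 10 genes, 7 had a signal over the floor on at least 1 array and 5 on all 3: Car2, Car3, Car8, Car12 and Car13. Car3 stood out in PDGFRa+Sca-1- cells, Car12 and Car2 were highest in PDGFRa-Sca-1- cells, Car8 was lowest in PDGFRa+Sca-1- cells, and none of the 10 was shown to be 2-fold or more higher in PDGFRa+Sca-1+ cells than in either other population, Car11 having only a bound there. Between PDGFRa+Sca-1+ and PDGFRa+Sca-1- cells 7 of the genes could be compared: Car2, Car3 and Car12 were at least 2-fold lower in PDGFRa+Sca-1+ cells, 0 were higher and 4 were within 2-fold. Among all 11855 genes compared, 11.3% were lower and 14.9% higher. Between PDGFRa+Sca-1- and PDGFRa-Sca-1- cells 6 could be compared: Car3 was higher in PDGFRa+Sca-1- cells, Car8 and Car12 were lower and 3 were within 2-fold, where 4.82% of 11675 genes were higher and 5.63% lower. Between PDGFRa+Sca-1+ and PDGFRa-Sca-1- cells 6 could be compared: Car2, Car3 and Car12 were lower in PDGFRa+Sca-1+ cells, 0 were higher and 3 were within 2-fold, where 12.2% of 11843 genes were lower and 14.5% higher. Because the signals that make these counts also led to the choice of genes, nothing is read from the shares.

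**Figure D1:**
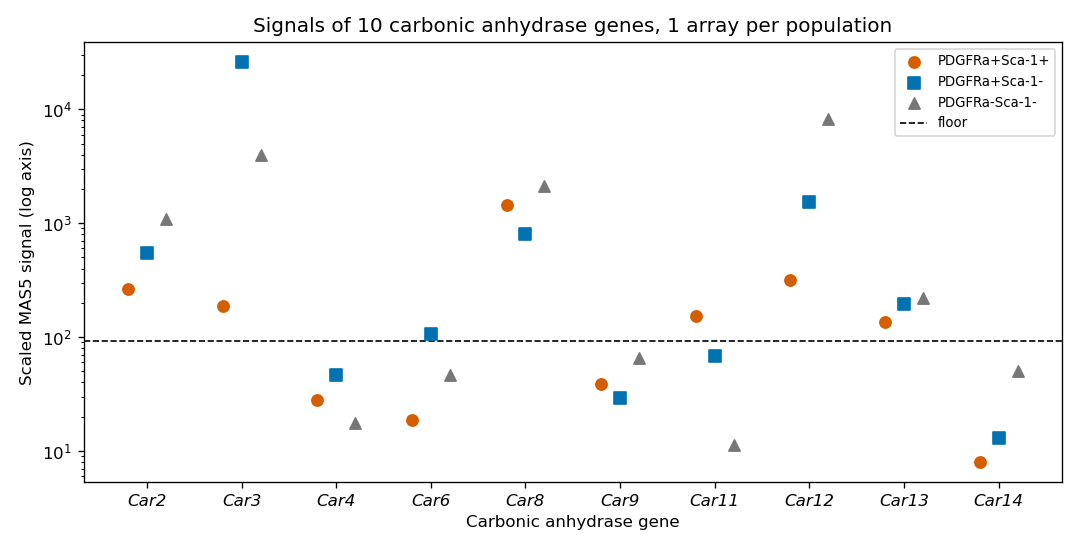
Scaled MAS5 signal (log axis) of the brightest probe set of each of the 10 carbonic anhydrase genes, with 1 point per array: circles for PDGFRa+Sca-1+, squares for PDGFRa+Sca-1- and triangles for PDGFRa-Sca-1- cells. The dashed line is the floor of 93.2; Car3 reaches 25816 in PDGFRa+Sca-1- cells, Car12 reaches 8181 in PDGFRa-Sca-1- cells, and Car4, Car9 and Car14 lie under the floor throughout.

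The cytosolic enzymes come first. Car3, a cytosolic form with weak activity on carbon dioxide that is known for its abundance in slow skeletal muscle and fat, had a signal of 188 in PDGFRa+Sca-1+, 25816 in PDGFRa+Sca-1- and 3932 in PDGFRa-Sca-1- cells. All 3 signals were over the floor, and the one in PDGFRa+Sca-1- cells approached the top of that array, whose brightest deposited signal was 38540, so its size may be compressed. The ratio was 137-fold lower in PDGFRa+Sca-1+ than in PDGFRa+Sca-1- cells, and only 2 of the 11855 genes compared had a lower ratio. Car3 was 6.56-fold higher in PDGFRa+Sca-1- than in PDGFRa-Sca-1- cells, where 31 of 11675 genes had a higher ratio, and 20.9-fold lower in PDGFRa+Sca-1+ than in PDGFRa-Sca-1- cells.

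Car3 had 4 probe sets, and the 2 that reached the floor gave the same order of the populations. The second brightest had a signal of 43.2 in PDGFRa+Sca-1+, 3949 in PDGFRa+Sca-1- and 312 in PDGFRa-Sca-1- cells. By this probe set Car3 was at least 42.4-fold lower in PDGFRa+Sca-1+ than in PDGFRa+Sca-1- cells and 12.6-fold higher in PDGFRa+Sca-1- than in PDGFRa-Sca-1- cells, a larger ratio in the second case than by the brightest probe set. The remaining probe sets stayed under the floor on all arrays, with highest signals of 89.3 and 37.0. With the log2 signals of all 4 averaged, the log2 ratio of PDGFRa+Sca-1+ over PDGFRa+Sca-1- was -3.03 in place of -7.10, and that of PDGFRa+Sca-1- over PDGFRa-Sca-1- was 1.97 in place of 2.71.

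**Figure D2:**
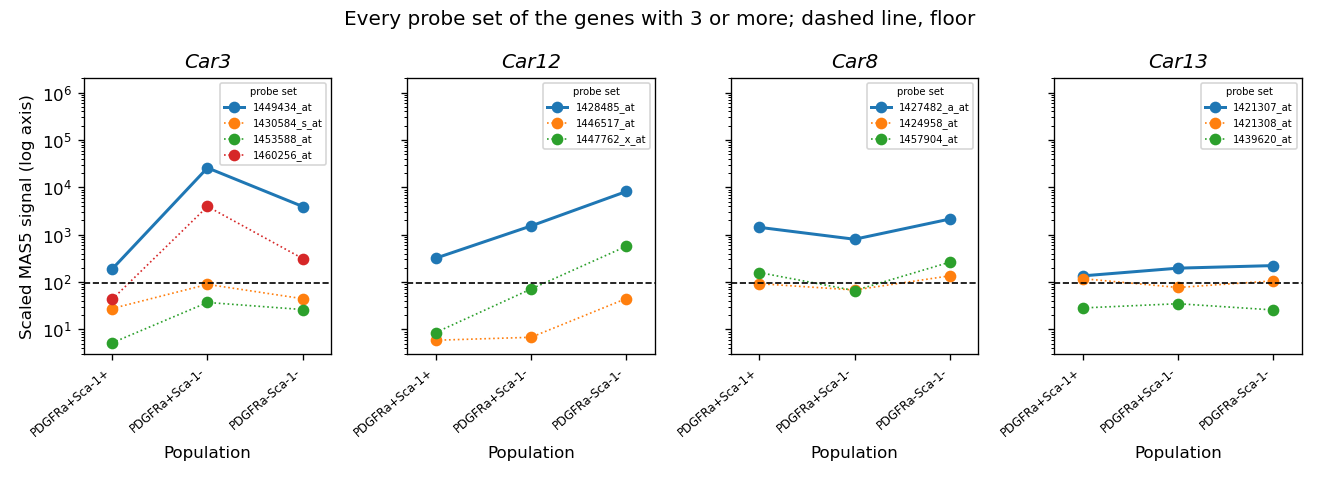
Scaled MAS5 signal (log axis) of every probe set of Car3, Car12, Car8 and Car13, the genes with at least 3, in the 3 populations; solid lines are the brightest probe set of each gene, dotted lines the others, and the dashed line is the floor of 93.2. Both probe sets of Car3 that reach the floor peak in PDGFRa+Sca-1- cells, and both of Car12 that reach it are highest in PDGFRa-Sca-1- cells; no order is read from points under the line.

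A peak in PDGFRa+Sca-1- cells, at least 2-fold over each of the others, was shared by 301 of the 11319 genes compared in both steps, or 2.66%. By the distance between log2 signals centred on each gene's own mean over the 3 arrays, among 8249 genes, the 5 patterns most like that of Car3 belonged to Matn1, Col10a1, F5, Slc38a4 and Frzb. The 8249 leave out carbonic anhydrases and clone or predicted gene symbols. Matn1, a cartilage matrix protein, was closest, with a distance of 0.22 and signals of 115 in PDGFRa+Sca-1+, 18704 in PDGFRa+Sca-1- and 2331 in PDGFRa-Sca-1- cells. Col10a1, the collagen of hypertrophic cartilage, followed with a distance of 0.45 and signals of 272, 24355 and 5071 in the same order. The distances of the blood coagulation factor gene F5, the amino acid transporter gene Slc38a4 and the Wnt antagonist gene Frzb were 0.82, 0.85 and 0.93. Slc38a4 and Frzb lay under the floor in PDGFRa+Sca-1+ cells, at 28.3 and 90.4, and entered at the floor there. Of the 13 genes of the chondrocyte list, Matn1 was the only 1 with such a peak. Between PDGFRa+Sca-1- and PDGFRa-Sca-1- cells 11 of that list were within 2-fold, beside 89.6% of all genes, and Ucma was at least 2-fold lower in PDGFRa+Sca-1- cells. Likeness over 3 arrays is a description of these libraries only.

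Some markers of hypertrophic chondrocytes and of osteoblasts shared the pattern of Car3. Of 7 genes of hypertrophic chondrocytes, 4 had the same peak in PDGFRa+Sca-1- cells, namely Col10a1, Ihh, Mmp13 and Alpl, and the signals of the list summed to 3124 in PDGFRa+Sca-1+, 119206 in PDGFRa+Sca-1- and 52221 in PDGFRa-Sca-1- cells. Of the 9 osteoblast and osteocyte genes compared in both steps, 4 peaked there too, Alpl, Ifitm5, Dmp1 and Phex, and 5 did not. That list summed to 20495, 123839 and 50085 in the same order. Alpl, Ibsp and Pth1r stand in both lists and made 1925, 68922 and 33018 of each sum, so the lists are not separate. Omd, an osteoblast proteoglycan gene, ran otherwise, at 1529 in PDGFRa+Sca-1+, 2729.7 in PDGFRa+Sca-1- and 6768 in PDGFRa-Sca-1- cells. Their part in the Car3 difference was not tested. In sorted cells measured in bulk, fewer cells of a type and less RNA per cell cannot be told apart.

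Markers of fat and muscle, the tissues in which Car3 is best known, were read in the same way. Of 12 adipocyte genes with a probe set, 6 lay over the floor in PDGFRa+Sca-1+, 5 in PDGFRa+Sca-1- and 4 in PDGFRa-Sca-1- cells, and their signals summed to 11687, 2725 and 2320, of which the lipase gene Lpl made 9906, 1251 and 661. Adipoq, the adiponectin gene, had signals of 58.4 in PDGFRa+Sca-1+, 294 in PDGFRa+Sca-1- and 79.5 in PDGFRa-Sca-1- cells. Cebpa, a regulator of fat cell formation, was lowest in PDGFRa+Sca-1- cells, with signals of 399 in PDGFRa+Sca-1+, 183 in PDGFRa+Sca-1- and 214 in PDGFRa-Sca-1- cells. The lipid droplet gene Plin4 was under the floor in PDGFRa+Sca-1- cells and over it in the others, at 185, 59.8 and 339 in the same order. The fat cell genes Cidec, Lep and Retn were under the floor on all 3 arrays, at no more than 21.9. Of 15 skeletal muscle genes, 1, 3 and 4 lay over the floor in the same order, and they summed to 716, 3302 and 2525. Of all 18193 genes 10846, 11042 and 11026 lay over it. The muscle creatine kinase gene Ckm, the myoglobin gene Mb and the muscle myosin genes Myh1, Myh2, Myh4 and Myh7 were under the floor on all 3 arrays, whereas Tnni2, a fast muscle troponin, had signals of 45.3 in PDGFRa+Sca-1+, 2163 in PDGFRa+Sca-1- and 1293 in PDGFRa-Sca-1- cells. The muscle actin gene Acta1 had 90.0, 638 and 457 in the same order, and Tnnt3, another troponin gene, had 98.1, 81.3 and 335, highest in PDGFRa-Sca-1- cells. Their part in the Car3 signals was not tested.

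Car2, the fast cytosolic enzyme of red cells, kidney and osteoclasts, had a signal of 263 in PDGFRa+Sca-1+, 548 in PDGFRa+Sca-1- and 1080.4 in PDGFRa-Sca-1- cells. The signals were all over the floor, lowest in PDGFRa+Sca-1+ and highest in PDGFRa-Sca-1- cells. Car2 was 4.10-fold lower in PDGFRa+Sca-1+ than in PDGFRa-Sca-1- cells. It was 2.08-fold lower in PDGFRa+Sca-1+ than in PDGFRa+Sca-1- cells and 1.97-fold lower in PDGFRa+Sca-1- than in PDGFRa-Sca-1- cells, so these steps lie on either side of the 2-fold threshold and are of nearly the same size. With each array divided by its median, the log2 ratio of PDGFRa+Sca-1+ over PDGFRa+Sca-1- was -0.93, within 2-fold, and that of PDGFRa+Sca-1- over PDGFRa-Sca-1- was -1.003, just past it. The gene had 1 probe set, so its scatter between probe sets cannot be given.

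The genes with patterns most like that of Car2 were Mad2l1, a mitotic checkpoint gene, the water and glycerol channel gene Aqp3, Fam184a, the secretory pathway gene Fkbp11 and the lipase gene Abhd12, at distances of 0.04 to 0.07. Mad2l1, the closest, had signals of 340.0 in PDGFRa+Sca-1+, 688 in PDGFRa+Sca-1- and 1339 in PDGFRa-Sca-1- cells. Aqp3 and Fam184a lay under the floor in PDGFRa+Sca-1+ cells and entered at the floor there. Their likeness to Car2 on that array therefore rests on the floor and not on a measured signal.

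Erythroid and osteoclast markers were read beside Car2 because both cell types carry much of this enzyme. Of 13 erythroid genes with a probe set, 3 lay over the floor in PDGFRa+Sca-1+, 9 in PDGFRa+Sca-1- and 8 in PDGFRa-Sca-1- cells, and they summed to 1686, 2836 and 8282, in the same order as Car2. The transferrin receptor gene Tfrc, which dividing cells of many kinds use, made 1063, 1752 and 6574 of these sums. Gata1 had 104.9, 162.1 and 204.4 in the same order, within 2-fold in every comparison. Hemgn had 53.8, 138.4 and 359.9, under the floor in PDGFRa+Sca-1+ cells. Both were highest in PDGFRa-Sca-1- cells, as Car2 was. Slc4a1 was over the floor only in PDGFRa+Sca-1- cells. All 9 genes compared between PDGFRa+Sca-1+ and PDGFRa+Sca-1- cells were within 2-fold. Of 8 compared between PDGFRa+Sca-1+ and PDGFRa-Sca-1- cells, 5 were lower in PDGFRa+Sca-1+ cells, 0 higher and 3 within 2-fold. Between PDGFRa+Sca-1- and PDGFRa-Sca-1- cells 9 erythroid genes were compared. There 4 were lower in PDGFRa+Sca-1- cells (Hemgn, Ermap, Rhd and Tfrc), 0 higher and 5 within 2-fold, where 5.63% of all genes were lower and 4.82% higher. The haem synthesis gene Alas2 was under the floor on all 3 arrays, at no more than 13.0, and so was Epb42. The 14 osteoclast genes summed to 17580 in PDGFRa+Sca-1+, 6859 in PDGFRa+Sca-1- and 7478 in PDGFRa-Sca-1- cells, of which the protease gene Ctsk made 10801, 4145 and 5077. Of all 18193 genes 10846, 11042 and 11026 lay over the floor, and of these osteoclast genes 8, 7 and 6. Of 8 compared between PDGFRa+Sca-1+ and PDGFRa+Sca-1- cells, 4 were at least 2-fold higher in PDGFRa+Sca-1+ cells, 0 lower and 4 within 2-fold. The counts between PDGFRa+Sca-1+ and PDGFRa-Sca-1- cells were the same. Among all genes 14.9% and 14.5% were higher and 11.3% and 12.2% lower in these comparisons. Ostm1 was highest in PDGFRa+Sca-1+ cells, at 2295. The pump subunit gene Tcirg1 was highest in PDGFRa+Sca-1- cells, at 827, but within 2-fold in every comparison. Calcr, Ocstamp, Dcstamp and Oscar were under the floor on all 3 arrays. The part of erythroid cells or osteoclasts in the Car2 signals was not tested.

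Car13, a cytosolic form of many tissues, had a signal of 135 in PDGFRa+Sca-1+, 196 in PDGFRa+Sca-1- and 223 in PDGFRa-Sca-1- cells. These signals lie near the floor and within 2-fold of each other in every comparison, the widest ratio being 1.65-fold lower in PDGFRa+Sca-1+ than in PDGFRa-Sca-1- cells. Its second probe set gave 118, 76.7 and 106 in the same order, so the order of the populations was not the same by both, and the remaining one was under the floor throughout. In RefSeq, assembly GRCm38.p6, Car13, Car1, Car3 and Car2 follow each other on 1 chromosome with no other protein-coding gene between them. These neighbours had different patterns on the arrays: Car3 peaked in PDGFRa+Sca-1- cells, Car2 was highest in PDGFRa-Sca-1- cells and Car13 stayed within 2-fold. Car1, the other red cell form, which is not among the 10, had signals of 102 in PDGFRa+Sca-1+, 69.5 in PDGFRa+Sca-1- and 215 in PDGFRa-Sca-1- cells.

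The forms at the cell surface were Car12, Car9 and Car14, which span the membrane with the catalytic part outside, and Car4, which is held by a lipid anchor. Car12 had a signal of 319 in PDGFRa+Sca-1+, 1529 in PDGFRa+Sca-1- and 8181 in PDGFRa-Sca-1- cells. Each step was large and of similar size: Car12 was 4.79-fold lower in PDGFRa+Sca-1+ than in PDGFRa+Sca-1- cells and 5.35-fold lower in PDGFRa+Sca-1- than in PDGFRa-Sca-1- cells. Over both, it was 25.7-fold lower in PDGFRa+Sca-1+ than in PDGFRa-Sca-1- cells, and 28 of 11843 genes had a lower ratio. Being at least 2-fold lower at each step was rare on these arrays, with 91 of 11319 genes, or 0.804%, and Car12 was the only one of the 10 genes to be so. Its order is the reverse of that of Pdgfra, whose signals are given above.

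The other probe sets of Car12 were dimmer. The second had signals of 8.59 in PDGFRa+Sca-1+, 71.2 in PDGFRa+Sca-1- and 570 in PDGFRa-Sca-1- cells, and so was at least 6.11-fold lower in either PDGFRa+ population than in PDGFRa-Sca-1- cells. The third never reached the floor, at no more than 44.8. With the log2 signals of the 3 averaged, both PDGFRa+ populations lay under the floor and could not be compared with each other.

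The patterns most like that of Car12 were those of A2m, a protease inhibitor, the vesicle transport gene Rab27a, the phospholipase gene Pla2g5, the kinesin gene Kif26b and Bpifb1, at distances of 0.22 to 0.45. A2m had signals of 125 in PDGFRa+Sca-1+, 492 in PDGFRa+Sca-1- and 3124 in PDGFRa-Sca-1- cells. Rab27a and Kif26b lay under the floor in PDGFRa+Sca-1+ cells, at 69.9 and 71.3, and entered at the floor there. Of the 13 chondrocyte genes, 1 was at least 2-fold lower at each step as Car12 was: Ucma, known from the early zones of growth plate cartilage, at 341 in PDGFRa+Sca-1+, 3482 in PDGFRa+Sca-1- and 15138 in PDGFRa-Sca-1- cells. The part of such cells in the Car12 difference was not tested.

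**Figure D3:**
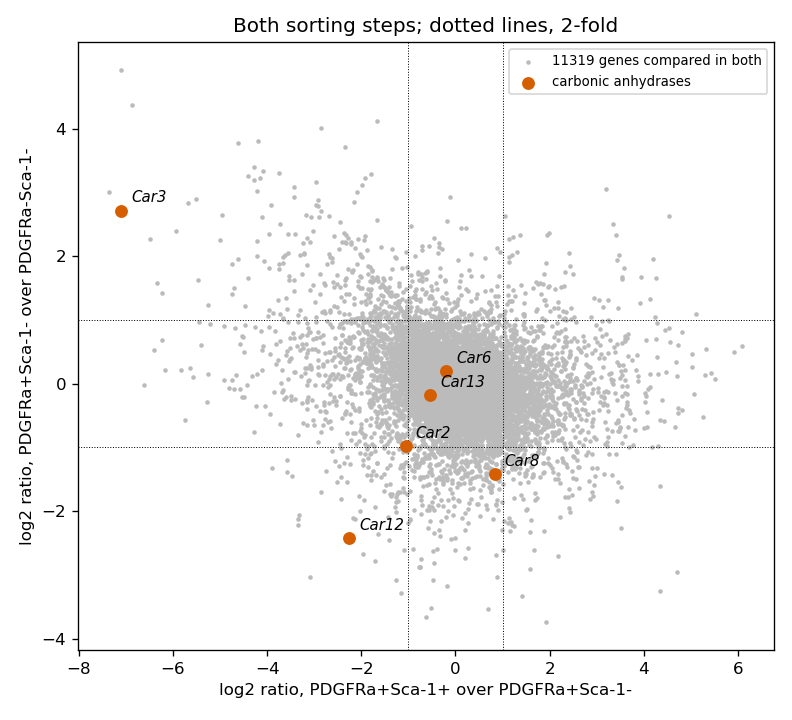
Log2 ratio of PDGFRa+Sca-1+ over PDGFRa+Sca-1- cells (horizontal) against that of PDGFRa+Sca-1- over PDGFRa-Sca-1- cells (vertical) for the 11319 genes compared in both, in grey, with 6 carbonic anhydrase genes in orange; dotted lines mark 2-fold. Dimmer signals entered at the floor, and the axes share the PDGFRa+Sca-1- array, so their slope is no result; Car3 lies at -7.10 and 2.71 and Car12 at -2.26 and -2.42.

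Car9, like Car12, is known as a gene induced by low oxygen, and it is used as a tissue marker of hypoxia. Its signals were 38.7 in PDGFRa+Sca-1+, 28.9 in PDGFRa+Sca-1- and 66.0 in PDGFRa-Sca-1- cells, all under the floor. The 2 genes thus differed in whether they were measured at all. Their promoter windows, from 250 bases before to 50 after the annotated start, are shown because the hypoxia-inducible factors bind a short core, ACGTG or GCGTG. Capitals mark matches to either core on either strand (CACGT and CACGC are the same cores read on the opposite strand). The sequences are from RefSeq, build GRCm38.p6, both on the plus strand: Car9 at chr4:43506776-43507075 and Car12 at chr9:66713436-66713735.
Car9: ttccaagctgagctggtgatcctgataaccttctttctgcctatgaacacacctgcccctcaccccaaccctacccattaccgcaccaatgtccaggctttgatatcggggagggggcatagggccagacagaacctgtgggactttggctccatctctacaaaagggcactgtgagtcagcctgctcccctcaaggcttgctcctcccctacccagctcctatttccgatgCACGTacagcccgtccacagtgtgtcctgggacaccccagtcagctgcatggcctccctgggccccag
Car12: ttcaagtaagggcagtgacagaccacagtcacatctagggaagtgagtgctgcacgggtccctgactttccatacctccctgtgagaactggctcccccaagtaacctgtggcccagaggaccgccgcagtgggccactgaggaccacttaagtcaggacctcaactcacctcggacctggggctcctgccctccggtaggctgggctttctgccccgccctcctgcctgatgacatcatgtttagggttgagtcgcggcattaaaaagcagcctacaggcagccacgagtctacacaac
The Car9 window held 1 match, at position -18 from the start, and the Car12 window 0. ACGTG was found in 19.6% and GCGTG in 32.4% of the 32851 promoter windows searched, and 43.8% held at least 1 of them. No match says only that these letters are not in this window.

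Car4, a form of kidney, lung capillaries and other tissues, had signals of 27.8 in PDGFRa+Sca-1+, 46.8 in PDGFRa+Sca-1- and 17.7 in PDGFRa-Sca-1- cells by its brightest probe set, and its other probe set was dimmer than the floor too. Car14 had signals of 7.99, 12.9 and 49.9 in the same order. No order is read from signals under the floor, so Car4, Car9 and Car14 were not compared in any pair of populations. A low MAS5 signal can also come from a probe set that binds poorly, and it does not show that a gene is silent.

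Car6, the secreted form of saliva, was at the limit of measurement, with signals of 18.6 in PDGFRa+Sca-1+, 107 in PDGFRa+Sca-1- and 46.7 in PDGFRa-Sca-1- cells. Only the PDGFRa+Sca-1- array exceeded the floor, by 1.15-fold, so Car6 was at least 1.15-fold lower in PDGFRa+Sca-1+ than in PDGFRa+Sca-1- cells.

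Car8 and Car11 encode relatives without carbon dioxide activity. Car8, known from Purkinje cells of the cerebellum, where its protein binds a calcium release channel, had a signal of 1431 in PDGFRa+Sca-1+, 801 in PDGFRa+Sca-1- and 2141 in PDGFRa-Sca-1- cells. It was over the floor on every array and lowest in PDGFRa+Sca-1- cells, the population in which Car3 was highest. Car8 was 2.67-fold lower in PDGFRa+Sca-1- than in PDGFRa-Sca-1- cells. It was 1.79-fold higher in PDGFRa+Sca-1+ than in PDGFRa+Sca-1- cells and its log2 ratio of PDGFRa+Sca-1+ over PDGFRa-Sca-1- cells was -0.58, both within 2-fold. The second probe set of Car8, with signals of 159 in PDGFRa+Sca-1+, 66.1 in PDGFRa+Sca-1- and 263 in PDGFRa-Sca-1- cells, gave the same ranking, at least 2.82-fold lower in PDGFRa+Sca-1- than in PDGFRa-Sca-1- cells. The third, with 92.3, 67.9 and 135 in that order of populations, was over the floor only in PDGFRa-Sca-1- cells.

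Car11, a secreted relative found mostly in brain, had signals of 154 in PDGFRa+Sca-1+, 68.5 in PDGFRa+Sca-1- and 11.2 in PDGFRa-Sca-1- cells. It was the only one of the 10 genes over the floor in PDGFRa+Sca-1+ cells alone. The ratio was at least 1.65-fold in favour of PDGFRa+Sca-1+ cells against each other population, a bound that does not reach 2-fold. With the floor lowered to the 33rd percentile the log2 ratio of PDGFRa+Sca-1+ over PDGFRa-Sca-1- cells was at least 1.90, still a bound. The log2 ratio over PDGFRa+Sca-1- cells, measured at that floor, was 1.17, past 2-fold.

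The scatter between different probe sets of the same gene, over all genes, is the only repeated measurement. In log2 ratios its SD was 0.60 for PDGFRa+Sca-1+ over PDGFRa+Sca-1- in 4300 genes, 0.37 for PDGFRa+Sca-1- over PDGFRa-Sca-1- in 4548 genes and 0.50 for PDGFRa+Sca-1+ over PDGFRa-Sca-1- in 4307 genes. The 2-fold threshold is thus 1.68, 2.69 and 1.98 such SDs. The ratios of Car3 and Car12 were several times this scatter, whereas the Car2 steps and the Car8 ratio of PDGFRa+Sca-1+ over PDGFRa+Sca-1- cells were within 3 of these SDs. This scatter covers probes and transcripts, not animals or arrays.

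The 6 carbonic anhydrase genes outside the 10 were mostly dim. Car5b, a mitochondrial form, had signals of 343 in PDGFRa+Sca-1+, 65.4 in PDGFRa+Sca-1- and 144 in PDGFRa-Sca-1- cells, at least 3.68-fold higher in PDGFRa+Sca-1+ than in PDGFRa+Sca-1- cells, although its other probe set gave at least 1.26-fold. Car15, a lipid-anchored form, had signals of 131, 101 and 143 in the same order, within 2-fold. Car5a and Car10 were under the floor on all arrays, and Car7 reached 95.7. Car1 was at least 2.31-fold lower in PDGFRa+Sca-1- than in PDGFRa-Sca-1- cells.

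Genes that work alongside the family were taken from lists chosen for their function. Bicarbonate and anion exchangers carry the product across the membrane. Of 11 such genes compared between PDGFRa+Sca-1+ and PDGFRa+Sca-1- cells, 3 were at least 2-fold higher in PDGFRa+Sca-1+ cells, 2 lower and 6 within 2-fold. Their median log2 ratio was 0.50, beside 0.07 over all genes, of which 14.9% were higher and 11.3% lower. Of 10 compared between PDGFRa+Sca-1- and PDGFRa-Sca-1- cells, 1 was higher, 2 lower and 7 within 2-fold (median -0.32 beside -0.03 over all genes). In that comparison 4.82% of all genes were higher and 5.63% lower. Of 9 compared between PDGFRa+Sca-1+ and PDGFRa-Sca-1- cells, 2 were higher, 2 lower and 5 within 2-fold (median 0.16 beside 0.03). There 14.5% of all genes were higher and 12.2% lower. The chloride and bicarbonate exchanger gene Slc4a2, which osteoclasts and other cells use, had signals of 1601 in PDGFRa+Sca-1+, 1045 in PDGFRa+Sca-1- and 878 in PDGFRa-Sca-1- cells, and Slc4a3 was 3.32-fold higher in PDGFRa+Sca-1+ than in PDGFRa-Sca-1- cells.

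Slc26a2, the sulfate transporter that cartilage needs for its proteoglycans, was the only one of the exchangers to be at least 2-fold lower at each step, as Car12 was. Its signals were 835 in PDGFRa+Sca-1+, 3146 in PDGFRa+Sca-1- and 6746 in PDGFRa-Sca-1- cells, 8.08-fold lower in PDGFRa+Sca-1+ than in PDGFRa-Sca-1- cells. Slc4a10, a sodium-coupled bicarbonate transporter, was over the floor only in PDGFRa+Sca-1+ cells, at 360.4, and at least 3.87-fold higher there than in either other population.

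Proton and lactate exporters remove the other product. Of 12 compared between PDGFRa+Sca-1+ and PDGFRa+Sca-1- cells, 3 were higher, 2 lower and 7 within 2-fold, where 14.9% of all genes were higher and 11.3% lower. The median log2 ratio was -0.26, beside 0.07 over all genes. Of 11 compared between PDGFRa+Sca-1- and PDGFRa-Sca-1- cells, 0 were higher, 2 lower and 9 within 2-fold (median -0.29 beside -0.03). Of 11 compared between PDGFRa+Sca-1+ and PDGFRa-Sca-1- cells, 2 were higher, 2 lower and 7 within 2-fold (median -0.17 beside 0.03). Among all genes 4.82% were higher and 5.63% lower in the former comparison, and 14.5% higher and 12.2% lower in the latter. The lactate transporter gene Slc16a1 was bright on all arrays, at 5880, 5556 and 6808 in PDGFRa+Sca-1+, PDGFRa+Sca-1- and PDGFRa-Sca-1- cells. Emb, which encodes embigin, a partner protein of lactate transporters, was lowest in PDGFRa+Sca-1- cells, with signals of 5820, 1782 and 3987 in the same order. Its ratio was 3.27-fold higher in PDGFRa+Sca-1+ than in PDGFRa+Sca-1- cells. Car8 was lowest in PDGFRa+Sca-1- cells too, but there within 2-fold of its signal in PDGFRa+Sca-1+ cells.

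The vacuolar proton pump, which in osteoclasts uses the protons that Car2 supplies and in all cells acidifies internal compartments, was read next. Of 18 pump genes compared between PDGFRa+Sca-1+ and PDGFRa+Sca-1- cells, 2 were higher, 0 lower and 16 within 2-fold (median log2 ratio 0.19). Over all genes 73.8% were within 2-fold in that comparison, 89.6% between PDGFRa+Sca-1- and PDGFRa-Sca-1- cells and 73.4% between PDGFRa+Sca-1+ and PDGFRa-Sca-1- cells. All 17 pump genes compared between PDGFRa+Sca-1- and PDGFRa-Sca-1- cells were within 2-fold, with a median that rounded to 0, and of 18 compared between PDGFRa+Sca-1+ and PDGFRa-Sca-1- cells 2 were higher and 16 within 2-fold (median 0.11). The subunit genes Atp6v1b2 and Atp6v0e2 were the ones at least 2-fold higher in PDGFRa+Sca-1+ cells in both, Atp6v0e2 by 3.56-fold over PDGFRa+Sca-1- and 2.15-fold over PDGFRa-Sca-1- cells and Atp6v1b2 by 2.07-fold over PDGFRa+Sca-1- and 2.03-fold over PDGFRa-Sca-1- cells.

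Genes induced by low oxygen, the class to which Car9 and Car12 belong, went both ways. Of 22 compared between PDGFRa+Sca-1+ and PDGFRa+Sca-1- cells, 5 were higher, 6 lower and 11 within 2-fold, where 14.9% of all genes were higher and 11.3% lower. The median log2 ratio was -0.20, beside 0.07 over all genes. Of 22 compared between PDGFRa+Sca-1- and PDGFRa-Sca-1- cells, 2 were higher, 3 lower and 17 within 2-fold (median -0.28 beside -0.03). Between PDGFRa+Sca-1+ and PDGFRa-Sca-1- cells 4 were higher, 8 lower and 10 within 2-fold (median -0.36 beside 0.03). Among all genes 4.82% were higher and 5.63% lower in the former comparison, and 14.5% higher and 12.2% lower in the latter. Pfkfb3, a regulator of glycolysis, was the only gene of this list at least 2-fold lower at each step, as Car12 was. Its signals were 339.9 in PDGFRa+Sca-1+, 1249 in PDGFRa+Sca-1- and 3355 in PDGFRa-Sca-1- cells. The adrenomedullin gene Adm had the opposite order, with signals of 6421 in PDGFRa+Sca-1+, 1673 in PDGFRa+Sca-1- and 332 in PDGFRa-Sca-1- cells, 19.3-fold higher in PDGFRa+Sca-1+ than in PDGFRa-Sca-1- cells. Egln3, an oxygen-sensing hydroxylase gene, was 7.29-fold higher in PDGFRa+Sca-1+ than in PDGFRa+Sca-1- cells, with signals of 708 and 97.1, and had a signal of 342 in PDGFRa-Sca-1- cells. Of the 3 brightest genes of the list, all of glycolysis, Hk2 and Ldha were within 2-fold in all 3 comparisons. Pgk1 was 2.13-fold lower in PDGFRa+Sca-1+ than in PDGFRa-Sca-1- cells, with signals of 9582 and 20443.

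Enzymes that fix bicarbonate into fatty acids, amino acid breakdown products and pyrimidines were within 2-fold for 5 of 7 genes between PDGFRa+Sca-1+ and PDGFRa+Sca-1- cells, 6 of 7 between PDGFRa+Sca-1- and PDGFRa-Sca-1- cells and 6 of 7 between PDGFRa+Sca-1+ and PDGFRa-Sca-1- cells. Over all genes 73.8%, 89.6% and 73.4% were within 2-fold, so these counts are near the background. Pcx, the pyruvate carboxylase gene, was 3.39-fold lower in PDGFRa+Sca-1+ than in PDGFRa+Sca-1- cells, with signals of 142 and 481, and Cad, the enzyme that starts pyrimidine synthesis, was 2.03-fold higher, with 892 and 439.8. Acaca, the acetyl-CoA carboxylase gene, was 2.03-fold lower in PDGFRa+Sca-1- than in PDGFRa-Sca-1- cells.

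**Figure D4:**
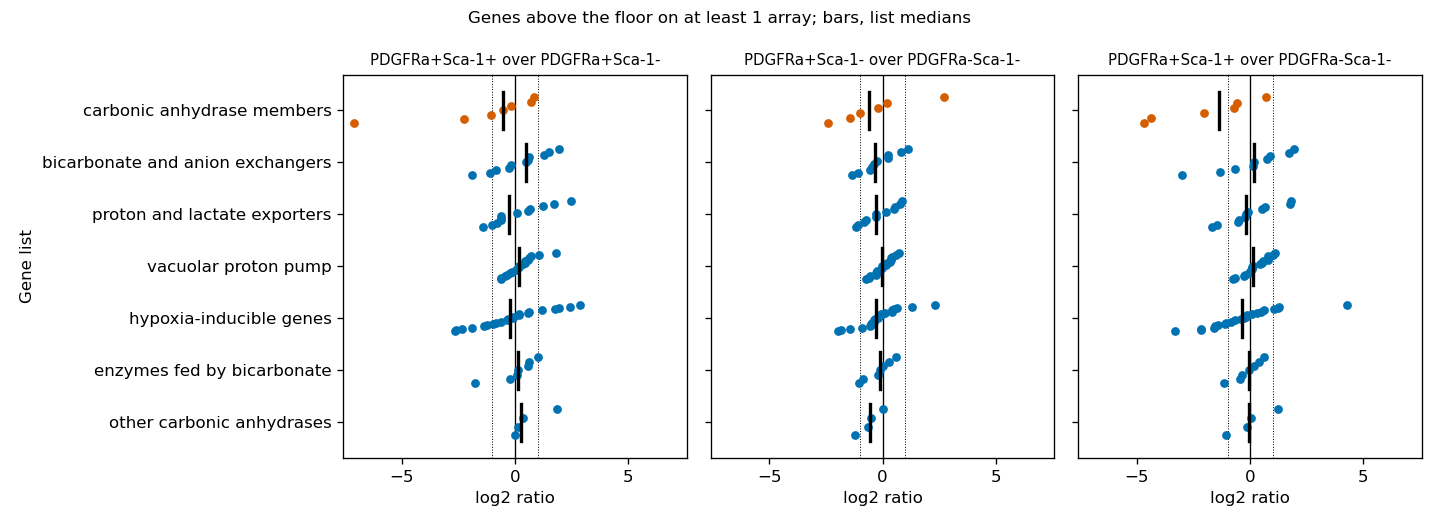
Log2 ratios of the carbonic anhydrase genes (orange) and of 6 lists of linked genes (blue) in the 3 comparisons, 1 point per gene that could be compared, with black bars at the list medians and dotted lines at 2-fold. The carbonic anhydrase medians are -0.54, -0.58 and -1.38 from left to right.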

How the data were processed

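The deposited intensities are linear probe set signals from MAS5, per the submitters' processing notes, with no version, detection call or filter given in the sources used here. Per the labels' protocols the RNA went through a two-cycle labelling assay. The deposited intensities have a 2% trimmed mean of 500.0 on each array. Here 64 control probe sets were set aside, arrays were rescaled to a common trimmed mean over 45037 probe sets, and signals under the floor (the mean of the array medians) were set to it before taking log2. Genes took the probe set of 1 symbol (34945 of them) with the highest mean log2 signal. A gene under the floor on 1 array has only a bound, and under it on both was not compared. With 1 array per population no test was run, and the number of arrays limits the precision. The counting code was run on simulated data with less noise than the scatter between probe sets, and with changes only in genes over 4 times the floor. That run does not gauge how sure the counts here are. Named genes were the 10 members, 6 relatives and 5 genes nearest in pattern to each of 3 members, among genes over 4 times the floor on some array. Carbonic anhydrases and clone or predicted gene symbols were left out of that search for near patterns. From each linked list some of the 3 brightest and of the 3 with the largest ratio were named, and not all of them. From each marker list some of the brightest and some other markers were named, also not all of them. Genes quoted for sharing a member's pattern over both steps were picked after their values were seen. The members and lists were chosen with earlier results of these data known. Promoter sequences were available here for 6 of the 10 genes. Alternatives were the floor, the probe set, the scaling and the fold. Python 3.11.15, numpy 2.4.6, pandas 2.3.3 and scipy 1.17.1 were used.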

Additional observations from a re-analysis of the deposited data

How the results depend on the processing

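No paired analysis was possible because each population had 1 array and no test was run. The count of carbonic anhydrase genes at least 2-fold apart was 3 in each comparison. For PDGFRa+Sca-1+ over PDGFRa+Sca-1- cells it was 5 with the floor at the 33rd percentile, 1 higher (Car11) and 4 lower (Car6 joined), and 2 with a 3-fold threshold, with the arrays divided by their medians or with the mean of all probe sets. For PDGFRa+Sca-1- over PDGFRa-Sca-1- cells it was 4 with the arrays divided by their medians, as Car2 joined those lower, and 4 with the floor at the 33rd percentile. Division by the medians moved the median log2 ratio of all genes for PDGFRa+Sca-1+ over PDGFRa+Sca-1- to 0.19, against 0.07. Over all genes a 3-fold threshold left 1534 of 3103 genes for PDGFRa+Sca-1+ over PDGFRa+Sca-1-, 392 of 1220 for PDGFRa+Sca-1- over PDGFRa-Sca-1- and 1560 of 3156 for PDGFRa+Sca-1+ over PDGFRa-Sca-1-, and the floor at the 67th percentile left 753 of the 1220. Of 103 log2 ratios of single genes recomputed under the alternatives, 0 changed sign among those at least 2-fold apart and 7 moved by more than the scatter between probe sets. These were the Car3 ratios with the mean of all probe sets (PDGFRa+Sca-1+ over PDGFRa-Sca-1-: -1.06 in place of -4.39, the others above), the Car12 ratio of PDGFRa+Sca-1+ over PDGFRa-Sca-1- with that mean (-2.67 in place of -4.68), and Car6 and Car11 near the floor with the floor at the 33rd percentile. The cause was not tested, but averaging includes probe sets under the floor on every array. Settings under which a gene could no longer be compared are not among the 103. Car12 for PDGFRa+Sca-1+ over PDGFRa+Sca-1- cells with that mean is such a case. Some of the 103 could not move, as when the choice of probe set changed for a gene with 1 probe set. The count is therefore no measure of stability.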
